A study of Arabidopsis thaliana with 75 samples.

Results

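N6-methyladenosine (m6A) peaks whose highest point, the summit, lay in the middle of an Arabidopsis thaliana gene were examined. A summit was assigned to each gene locus that held it on the strand opposite to that named for the peak list, since 99.2 to 99.6% of seedling peaks had a gene on that strand and 4.36 to 5.65% on the named one. The middle was the stretch between 20% and 80% of the gene span counted from the 5′ end, which is 60% of the span by construction. In seedlings 145528 of 287998 peaks, summed over 17 libraries, had a middle summit, against 23637 in the first 20% (here 5′ summits) and 117128 in the last 20% (3′ summits). In leaves 124345 of 209464 peaks in 9 libraries did, against 26286 with 5′ and 58011 with 3′ summits.

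Seedlings were 14 days old and were either untreated or given 1 µM flg22, the bacterial flagellin peptide that plants sense as a sign of infection, for 4 h. The genotypes were wild-type Col-0, mta, a line of the m6A methyltransferase gene MTA, and 35SALKBH10B, named for the constitutive 35S promoter and the m6A demethylase ALKBH10B. Each seedling m6A group had 3 libraries except untreated Col-0, with 2 (replicates 2 and 3). Leaves came from plants 4 weeks old, with 3 libraries each for Col-0 at 00, Col-0 at 24 and mta at 00. The leaf groups are named by the 00 and 24 of their titles, which have no unit, because the labels differ on the treatment at 24: the titles carry Pst and the protocol describes infiltration with bacteria, while the treatment label is flg22. All libraries were made from RNA taken through 2 rounds of poly(A) selection. The alleles and clones of the lines, and whether replicates were separate cultures or plants, were not stated in those sources. The p-values therefore measure the spread between libraries, which may be technical. The time at which untreated seedlings were collected differs between labels, so a difference with flg22 can include time.

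In plants m6A is added to mRNA in the nucleus by a complex whose catalytic subunits are MTA and MTB, is removed by demethylases such as ALKBH10B, and is bound by ECT proteins of the YTH family. Mapping by antibody pulldown has repeatedly placed plant m6A near the stop codon and in the 3′ untranslated region. The middle used here is set by gene span and not by those limits. Summed over libraries, it held the most summits in both tissues. A peak marks where RNA fragments pulled down by the antibody pile up above the background of the peak caller, and the fold enrichment given for each peak is the authors' own value.

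The seedling mRNA libraries held 9442047 to 13222937 counts in gene loci and the leaf mRNA libraries 20467621 to 44052628. Uncapped RNA, mapped by GMUCT (sequencing of 5′ ends of uncapped and cleaved transcripts), held 3107893 to 41465534 reads. How deeply the m6A libraries were sequenced is not known here. MTA had 0 counts in all 24 mRNA libraries, so mRNA checks nothing about the mta label, while uncapped RNA of MTA was 21.3 ± 2.75 RPM (SD, n = 3) in untreated Col-0 and 9.86 ± 0.19 in untreated mta. Mesophyll markers, with 4 of 5 above 0 and CAB2 at 0, summed to 4890 to 12994 CPM in seedlings and 23356 to 67510 in leaves. Root markers summed to 631 to 1312 CPM in seedlings, which hold roots, and to 0.512 to 132 in leaves. Guard cell markers reached 36.8 CPM in seedlings and 117 in leaves, and seed markers 5.43 and 0.726, and their part in the results was not tested. In bulk tissue, fewer cells of a type and less RNA per cell cannot be told apart.

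Middle peaks were spread thinly over many genes. A seedling library held 6431 to 11007 middle summits (median 7854) in 5027 to 7440 genes, and a leaf library 9764 to 17782 (median 12925) in 4983 to 8026 genes. Between 98.7 and 99.3% of the seedling middle summits lay in protein-coding genes. In seedlings 35.9 to 51.2% of genes with a middle summit also had a 3′ summit. The median distance from a middle summit to the 3′ end of the gene was 1063 to 1214 nt, and at most 6 to 9 middle summits lay in 1 gene. In leaves that maximum was 11 to 28. Peaks were 170.5 to 210 nt wide at the median in seedlings and 134 to 169 nt in leaves. Because the seedling lists reach down to q 0.01 and the leaf lists to p 0.01, the 2 tissues are not compared.

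The share of summits in the middle differed with the length of the gene. The class is set by share of the span, so its width in nt grows with the gene, and why the share differed was not tested. In seedlings, genes of up to 1000 nt had a median of 86.7% of their summits in the middle, genes of 1000 to 2000 nt 56.9%, and genes of 2000 to 3000 nt 44.3%, after which the share stayed near 46% (46.2% to 5000 nt and 46.4% beyond). In leaves the share was lower in each longer bin, at 86.1, 65.2, 59.4, 58.6 and 57.7%. At the limits of the class there was no step in number: in seedlings 2172 summits lay between 19 and 20% of the span and 2022 between 20 and 21%, and 4110 lay between 79 and 80% against 4106 between 80 and 81%. In leaves these counts were 1839, 1692, 3083 and 3146. The median fold enrichment of library medians was 4.69 just outside and 4.62 just inside the lower limit in seedlings, and 4.21 just inside and 4.16 just outside the upper one.

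Middle peaks were weaker than 5′ peaks, and their difference from 3′ peaks was small and depended on the peaks used. The median fold enrichment of middle peaks was 3.69 to 4.99 over the seedling libraries and 2.55 to 3.34 over the leaf libraries. On the log2 scale the median of the middle peaks of a seedling library lay below that of its 5′ peaks (mean log2 difference -0.25 ± 0.05, SD), in 17 of 17 libraries (permutation p 4e-05, two-sided, sign flips over libraries). Against 3′ peaks the difference was -0.08 ± 0.05, below 0 in 17 of 17 libraries (permutation p 4e-05). Its group means ran from -0.02 in mta under flg22 to -0.15 in untreated 35SALKBH10B, so that SD also holds spread between groups. This second difference was not kept when only stronger peaks were used, at -0.0056 for peaks with −log10 q of 5 or more (permutation p 0.478) and -0.0149 for the 12000 strongest peaks of each library (permutation p 0.108), an alternative chosen after seeing the data. In leaves the middle peaks differed from the 5′ peaks by -0.08 ± 0.02 in 9 of 9 libraries (exact sign-flip permutation p 0.00391, the smallest possible), and against the 3′ peaks the difference was -0.04 ± 0.06, below 0 in 6 of 9 (exact permutation p 0.0586).

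A small core of middle regions recurred in every library. Summits within 100 nt of each other across libraries were joined into regions, which gave 26311 middle regions in seedlings. Of these 1397 (5.31%) held a summit in all 17 libraries and 27.6% in 1 library, while 11.4% of 3′ regions and 8.74% of 5′ regions were in all 17. In leaves 1383 of 42243 middle regions (3.27%) were in all 9 libraries, against 7.03% of 3′ and 4.80% of 5′ regions. At gene level 10872 of 32844 loci (33.1%) had a middle summit in at least 1 seedling library and 1321 had a region present in all, and in leaves 12529 (38.1%) and 1173.

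The 10 highest recurrent middle regions of seedlings had median fold enrichments of 11.3 to 12.9 over the 17 libraries. They lay in ATCG00670 (a chloroplast locus), AT2G19730, AT2G28720, AT1G67860, AT4G16240, ALDH2C4, DIR1, FP3, AT5G17900 and AT4G23670. ALDH2C4 (AT3G24503, chromosome 3, 8919560 to 8923296, minus strand, TAIR10), an aldehyde dehydrogenase of ferulate and sinapate synthesis, had its summit at 8922359, 25.1% along the gene. Its fold enrichment was 11.82 and 11.26 in untreated Col-0, 11.72, 9.10 and 13.06 under flg22, and 10.77, 11.48 and 10.38 in untreated mta. It was 11.87, 15.12 and 14.39 in mta under flg22, 9.30, 11.70 and 13.78 in untreated 35SALKBH10B and 16.84, 16.36 and 14.38 in that line under flg22. The last group did not overlap the other genotypes' untreated libraries, nor its own. The library medians of all middle peaks in that line were also higher under flg22 (mean 4.98) than untreated (4.21). DIR1 (AT5G48485, chromosome 5, 19646028 to 19646840, minus strand), a lipid transfer protein of systemic acquired resistance, had its summit at 19646485 and a median fold enrichment of 11.8 (range 8.10 to 16.8). A locus on the other strand covers 100% of DIR1, so its mRNA counts cannot be told apart from that locus.

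FP3 (AT5G63530, chromosome 5, 25432890 to 25435910, plus strand), which encodes a farnesylated protein, showed the same summit within 13 nt in all 17 libraries, at 25433545 to 25433558, 21.8% along the gene. Its fold enrichment was 12.96 and 12.45 in untreated Col-0 and 8.34, 7.28 and 4.77 in Col-0 under flg22, so the groups did not overlap. In 35SALKBH10B it went the other way, from 9.37, 10.55 and 11.38 untreated to 13.95, 15.13 and 12.76 under flg22. The mean of the library medians of all middle peaks moved in the same directions. It went from 4.37 to 3.94 in Col-0 and from 4.21 to 4.98 in 35SALKBH10B. Whether FP3 moved more than its lists was not tested. The mRNA of FP3 was 22 ± 1.61 CPM (SD, n = 3) in untreated Col-0 and 10.4 ± 2.68 under flg22.

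**Figure D1:**
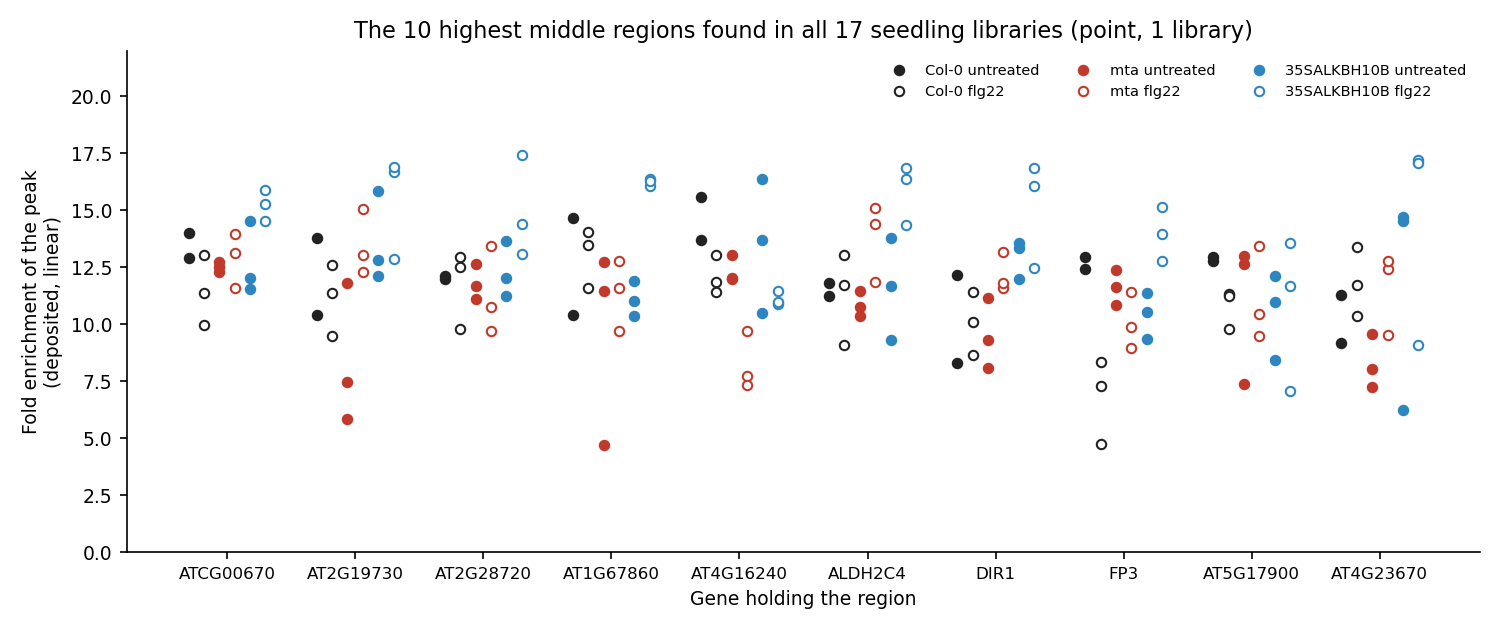
Fold enrichment of the peak (linear, as deposited) in each seedling library for the 10 recurrent middle regions with the highest median. Points are single libraries, filled for untreated and open for flg22. The FP3 values of Col-0 under flg22 (4.77 to 8.34) lie below all other FP3 points, and the ALDH2C4 values of 35SALKBH10B under flg22 reach 16.8.

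In leaves the recurrent middle regions with the highest medians lay in COR27, AT5G03460, ALDH5F1, BBX13, GPX8, AT5G62360, CBP20, SEC3A, AT5G00660 and AT5G27820. ALDH5F1 (AT1G79440, chromosome 1, 29882121 to 29887414, minus strand), the succinic semialdehyde dehydrogenase, was steady, with 9.35, 11.46 and 11.03 in Col-0 at 00, 7.82, 8.68 and 9.30 at 24, and 7.69, 10.81 and 10.14 in mta at 00. CBP20, the small subunit of the nuclear cap-binding complex, had a median of 7.71 and GPX8, a glutathione peroxidase, 7.89. GPX8 gave 8.29, 10.18 and 9.67 in Col-0 at 00 and 4.25, 5.07 and 5.86 at 24, groups that did not overlap.

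COR27, a cold-regulated gene that the circadian clock controls, had the highest leaf region and the widest range. The gene (AT5G42900) lies on the minus strand of chromosome 5 at 17197641 to 17199910, with the summit at 17198580. Its fold enrichment was 12.20, 15.84 and 18.91 in Col-0 at 00, 2.79, 4.95 and 2.95 at 24, and 10.49, 17.47 and 17.75 in mta at 00. The COR27 mRNA of the libraries labelled 00 was at 0.136 ± 0.138 CPM (SD, n = 3) in Col-0, and of those labelled 24 at 10.8 ± 4.15. The strongest leaf peak thus stood, by label, with an mRNA that was close to absent. Whether the m6A and mRNA libraries of 1 leaf label came from the same plants or hour was not tested.

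Seedlings of the mta line had a larger share of their summits in the middle of genes than Col-0. Untreated Col-0 libraries held 45.9 and 46.8% middle summits and untreated mta libraries 54.7, 56.3 and 55.3%. Every mta library was above every Col-0 library, by 9.12 percentage points between the means (55.4 ± 0.80 against 46.3 ± 0.66, SD). Under flg22 Col-0 gave 49.7, 51.9 and 49.1% and mta 56.8, 55.3 and 56.9%, a difference of 6.10 points with no overlap. Groups of this size cannot go below p 0.1 in the exact permutation test (two-sided), which is the value both comparisons had, and p adjusted over the 7 seedling comparisons was 0.175, so neither passed the threshold of 0.05.

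Without treatment, the larger share in mta came with more middle summits and fewer 3′ summits. Untreated mta had 9837, 10782 and 10344 middle summits against 7832 and 7395 in Col-0 (difference 2707.5, exact permutation p 0.1, adjusted 0.7), and 6829, 6802 and 6930 3′ summits against 8216 and 7421. The groups did not overlap in either count. Under flg22 the numbers of middle summits overlapped, at 11007, 7288 and 9761 in mta and 8420, 10135 and 7481 in Col-0 (difference 673, exact permutation p 0.8, adjusted 0.9). In untreated seedlings the shift stood at the very end of the gene: the last 10% of the span held 27.5 ± 0.83% of summits in untreated Col-0 and 17.6 ± 1.00% in untreated mta, while the 10% before it held 20.1 ± 0.03 and 19.3 ± 0.24%. Each 10% step of the middle held a higher mean share in mta, from 7.11 against 5.76% at 20 to 30% of the span to 13.1 against 11.7% at 70 to 80%. The step before the middle, 10 to 20% of the span, was also higher in mta, at 6.29 ± 0.32 against 5.05 ± 0.09%, so the larger share was not limited to the middle.

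**Figure D2:**
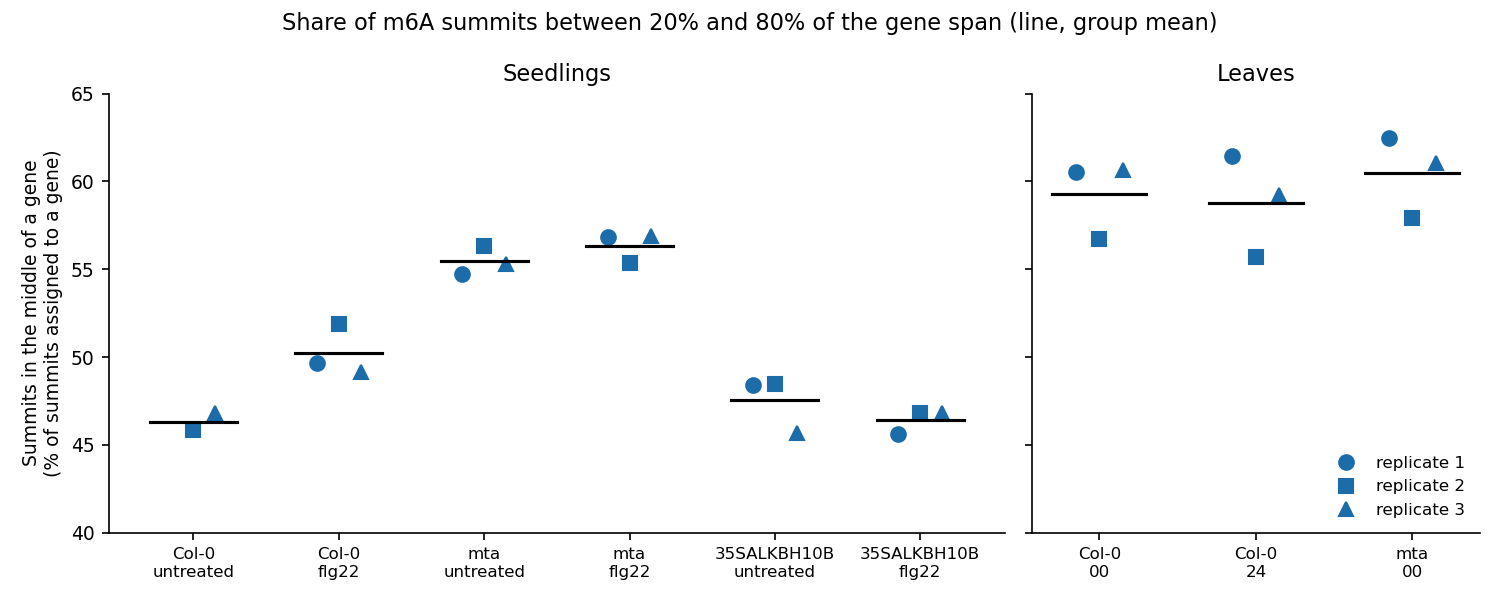
Share of assigned summits that lay in the middle of a gene (percent, axis starting at 40) in each library, with the group mean as a line. All 6 mta seedling libraries (54.7 to 56.9%) lie above all other seedling libraries, and the leaf groups overlap.

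**Figure D3:**
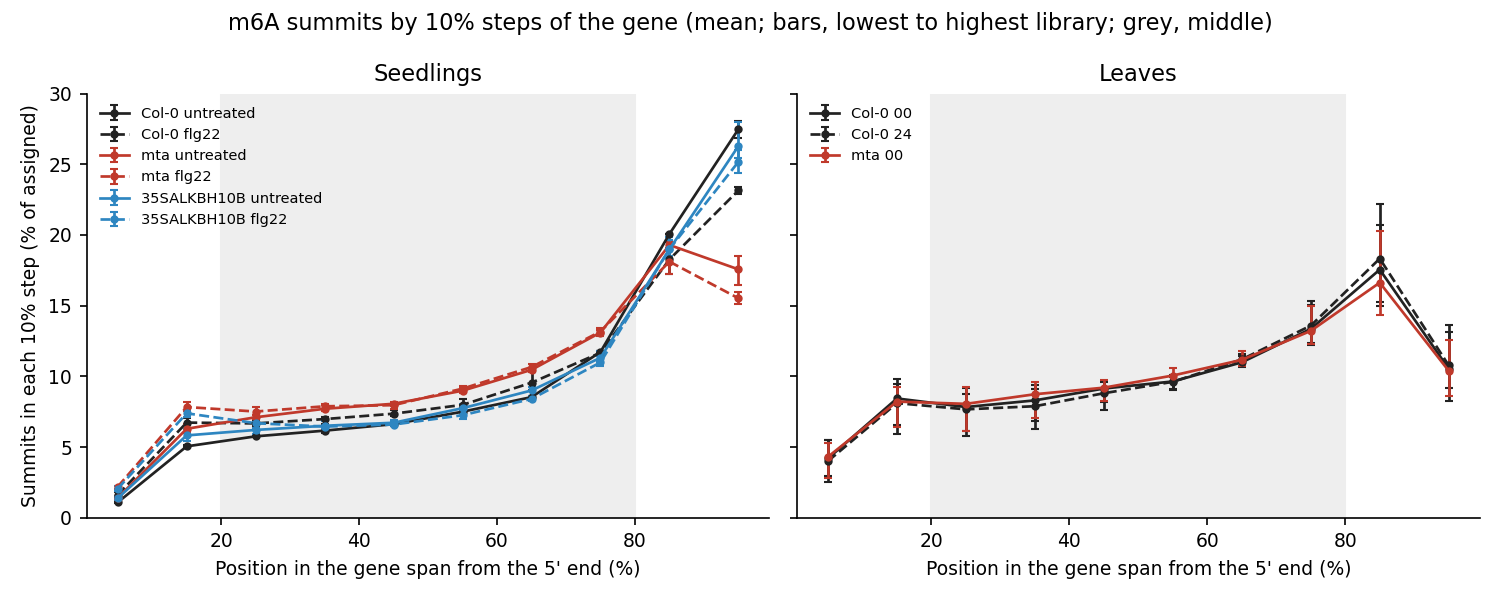
Share of assigned summits (percent) by 10% steps of the gene span from the 5′ end, as group means with bars from the lowest to the highest library and the middle in grey. The last step holds 27.5% in untreated Col-0 and 17.6% in untreated mta, and the leaf groups lie on each other.

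The share moved less with flg22, and whether it moved unequally in the 3 genotypes was not tested. In Col-0 it went from 46.3 ± 0.66 to 50.2 ± 1.46%, a difference of 3.92 points without overlap (exact permutation p 0.1, adjusted 0.175). In mta it was 0.90 points higher under flg22 (exact permutation p 0.2, adjusted 0.28), and in 35SALKBH10B it was 47.5 ± 1.59% untreated and 46.4 ± 0.69% under flg22 (exact permutation p 0.3, adjusted 0.35), both with overlapping groups. The sign in 35SALKBH10B depended on the peaks used, with differences of 1.08 points for peaks with −log10 q of 5 or more and 0.90 points for the 12000 strongest peaks. The numbers of middle summits overlapped in all 3 of these comparisons. The 35SALKBH10B line differed from Col-0 under flg22, with shares of 45.6, 46.8 and 46.8% that lay 3.84 points below Col-0 without overlap (exact permutation p 0.1, adjusted 0.175). Without treatment its shares of 48.4, 48.5 and 45.7% overlapped those of Col-0 (difference 1.21, exact permutation p 0.4, adjusted 0.4). The median fold enrichment of middle peaks in 35SALKBH10B was 4.98 ± 0.01 under flg22 and 4.21 ± 0.26 untreated. This shift was not limited to the middle. Library medians of 3′ peaks in the line were 5.04 to 5.16 under flg22 and 4.45 to 4.93 untreated. Those of 5′ peaks were 5.96 to 6.18 and 4.73 to 5.31.

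In leaves no difference of this kind was seen. Middle shares were 60.6, 56.7 and 60.6% in Col-0 at 00, 61.4, 55.7 and 59.2% at 24 and 62.5, 57.9 and 61.0% in mta at 00. Col-0 at 24 differed from 00 by -0.51 points (exact permutation p 0.7, adjusted 0.7) and mta from Col-0 at 00 by 1.17 points (p 0.5, adjusted 0.7, exact permutation), with overlapping groups. Replicate 2 was the lowest of each leaf group, and leaf libraries of 1 number deviated together. Within numbers 1, 2 and 3, the share at 24 differed from 00 by 0.87, -0.98 and -1.40 points (exact sign-flip permutation p 0.5). The numbers of middle summits differed by -84, -376 and 1130. Within numbers, mta was above Col-0 by 1.93, 1.2 and 0.40 points (exact sign-flip permutation p 0.25, the smallest that 3 pairs allow) and had fewer middle summits (differences of -1041, -1575 and -1875, mean -1497, with the same exact p of 0.25).

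Regions present in every library of 1 group and in none of the other give the same comparison gene by gene. Between untreated mta and Col-0 seedlings, 845 middle regions were found only in mta (4.86% of 17397) and 243 only in Col-0 (1.40%), where the shares over regions of all classes were 3.89% and 2.92%. 3′ regions went the other way, with 247 only in mta and 665 only in Col-0 of 12099. 5′ regions went the same way as the middle, with 150 only in mta (6.21% of 2417) and 24 only in Col-0 (0.993%). The excess on the mta side was thus not limited to the middle. Under flg22, 224 middle regions were found only in mta and 153 only in Col-0 of 19262 (all classes 0.959% and 1.8%), against 64 and 448 of the 11941 regions at the 3′ side. At the 5′ side the counts were 40 and 15 of 3012. Of the 820 genes with an mta-only middle region in untreated seedlings, 73 (8.90%) had a 3′ region only in Col-0, against 121 of 3331 genes (3.63%) whose middle region was in every library of both. Another 248 of the 820 (30.2%) had no 3′ summit in any of these libraries, against 1596 of 3331 (47.9%).

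Among the mta-only regions of untreated seedlings the strongest was in OVA9 (AT1G25350, chromosome 1, 8889017 to 8894306, minus strand), a glutamine-tRNA ligase. Its summit at 8892589 had a fold enrichment of 9.92, 10.66 and 8.25 in untreated mta and no peak in untreated Col-0, but it was also present in Col-0 under flg22 (7.03, 6.42 and 6.36) and in all 6 libraries of 35SALKBH10B. OVA9 mRNA did not pass the test between untreated mta and Col-0 (75.8 ± 5.96 against 71.2 ± 8.23 CPM, log2 fold change 0.09, SE 0.10, edgeR adjusted p 0.52). Thus untreated Col-0 was the one group that lacked the OVA9 region. MAPR2, a membrane protein of the progesterone receptor-like family, had 9.31, 9.98 and 9.50 in untreated mta, with an mRNA that was lower there by 0.60 on the log2 scale (log2 fold change -0.60, SE 0.10, edgeR adjusted p 9.1e-06). AT3G15760 was the third.

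On the Col-0 side stood AT3G22060, AT2G32240 and PRR7, a repressor of the circadian clock. The PRR7 region at 78.7% of the gene (AT5G02810, chromosome 5, 637681 to 642144, minus strand, summit 638632) had 8.41 and 8.25 in untreated Col-0 and 6.39 in 1 flg22 library of Col-0, and no peak in the other 14 lists. PRR7 mRNA was higher in mta, at 33.9 ± 2.93 against 20.8 ± 5.12 CPM untreated (log2 fold change 0.70, SE 0.15, edgeR adjusted p 0.00038). In Col-0 under flg22, GSTF9, a glutathione transferase, lacked a middle region that 11 libraries of the other genotypes held, among them all 3 of mta under flg22 (6.06, 8.83 and 8.51), and none of the 5 Col-0 libraries had it. The mitochondrial small heat shock protein HSP23.6-MITO had 9.73, 9.90 and 12.39 in mta under flg22 and none in Col-0 under flg22, with mRNA at 34.2 ± 0.41 and 11.4 ± 2.52 CPM.

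GRP23 (AT2G32690), a glycine-rich protein on the minus strand of chromosome 2 at 13863634 to 13864723, held 2 middle regions that excluded each other. The region at 71.3% of the gene had its summits between 13863920 and 13864120 and was present in 11 lists: untreated Col-0 (9.25 and 10.70), Col-0 under flg22 (13.41, 9.08 and 10.88), untreated mta (10.93, 11.63 and 9.82) and untreated 35SALKBH10B (9.30, 11.74 and 11.79). The region at 27.3%, with summits between 13864407 and 13864429, was present in the other 6, mta under flg22 (10.84, 8.52 and 10.55) and 35SALKBH10B under flg22 (15.69, 5.04 and 14.25). No library held both, so that with flg22 the called summit lay on the 5′ side in both altered lines and on the 3′ side in Col-0. GRP23 mRNA was 60.2 ± 5.07 CPM in untreated Col-0, 38.8 ± 5.07 in Col-0 under flg22, 44.2 ± 2.31 in untreated mta and 21.9 ± 3.36 in mta under flg22. Phox4 (AT4G32070) showed a nearby pair of this kind, with a region at 28.5% in 6 lists, including both of untreated Col-0 (12.15 and 12.59), and one at 32.6% in the other 11. The Phox4 summits lay at 15506283 to 15506405 and at 15506136 to 15506179 of chromosome 4, so counts of regions found in 1 group also hold short moves of a summit.

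With flg22 in Col-0, 770 middle regions were found only under flg22 and 732 only untreated, of 17133 (4.49 and 4.27%, against 3.98% and 4.67% over all classes), while 3′ regions were 262 and 697. The 5′ regions were 253 and 78 of 2552 (9.91 and 3.06%). Which side of the middle count was higher depended on the libraries, at 1098 and 1863 without replicate 3 of untreated Col-0, whereas the mta side stayed the higher in untreated mta against Col-0 without any 1 of its 5 libraries. In mta, 422 were only under flg22 and 842 only untreated of 21299 (all classes 1.95% and 4.17%). In 35SALKBH10B, 409 and 428 of 16519 were (2.41% and 2.65% over all classes). The flg22-only regions of Col-0 were led by NRPB6A, a subunit of RNA polymerases, by WRKY31 and by FKBP12, a peptidyl-prolyl isomerase. WRKY31 (AT4G22070, chromosome 4, 11691162 to 11694590, minus strand, summit 11693368), a transcription factor of the WRKY family, had 8.69, 5.61 and 8.71 under flg22 and no peak in untreated Col-0. WRKY31 mRNA rose from 4.91 ± 1.27 to 45.9 ± 2.35 CPM (log2 fold change 3.21, SE 0.16, edgeR adjusted p 7.8e-20), and the region was also in all 3 untreated mta libraries (4.53, 4.92 and 6.12), where mRNA was 15.5 ± 1.93 CPM. NRPB6A had 12.21, 9.27 and 7.04 with no difference in mRNA that passed the test (log2 fold change -0.02, SE 0.13, edgeR adjusted p 0.88). The untreated-only regions were led by Phox4, AT1G42430 and AT5G27330.

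Against 35SALKBH10B without treatment, 254 regions were only in that line and 393 only in Col-0 of 15534 (all classes 1.57% and 2.4%), and under flg22 238 and 395 of 17023 (1.42% and 1.99%). The line's own regions were led by Phox4, GSTU9 and AT4G08310 untreated, and by GRP23, AT1G54460 and AT2G30766 under flg22. The regions only in Col-0 were led by Phox4, LINC1, a protein of the plant nuclear lamina, and EMB269 untreated, and by GRP23, AT1G03290 and AT3G24080 under flg22. GSTU9, another glutathione transferase, had 9.28, 7.75 and 8.87 in the untreated line and no peak in untreated Col-0. The flg22 comparison within the line named AT1G21326, GRP23 and LSU1 on its flg22 side and GRP23, AT1G20920 and AT1G08580 on the other. LSU1, a gene induced by sulfur shortage, had 5.99, 15.63 and 13.97 under flg22 in the line and no peak there untreated, although both untreated Col-0 libraries held the region (6.23 and 3.98). Within mta, the flg22 side named GRP23, AT1G08940 and AT2G42760, and the untreated side IBH1, GRP23 and AT1G74250.

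In leaves 459 middle regions were only at 24 and 423 only at 00 of 36337 (all classes 1.21% and 1.05%). Between mta and Col-0 at 00, 142 were only in mta and 444 only in Col-0 of 34904 (0.355% and 1.28%). The regions only at 24 were led by AT5G39520, UMAMIT44, a member of an amino acid transporter family, and UPI, a protease inhibitor, and those only at 00 by AT14A, AT3G02820 and E13L3. UPI had 5.92, 3.64 and 5.85 at 24 with mRNA at 2.12 ± 1.48 CPM, against 0 in all libraries at 00. UMAMIT44 had 6.48, 8.72 and 6.73 at 24, with an mRNA of 14.3 ± 1.48 CPM there against 38.6 ± 8.94 at 00 (log2 fold change -1.43, SE 0.18, edgeR adjusted p 2.1e-05). The mta side named AT3G28940, AT1G28120 and ACA.l, and its Col-0 side AT1G52200, AT3G02820 and AT1G78260.

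**Figure D4:**
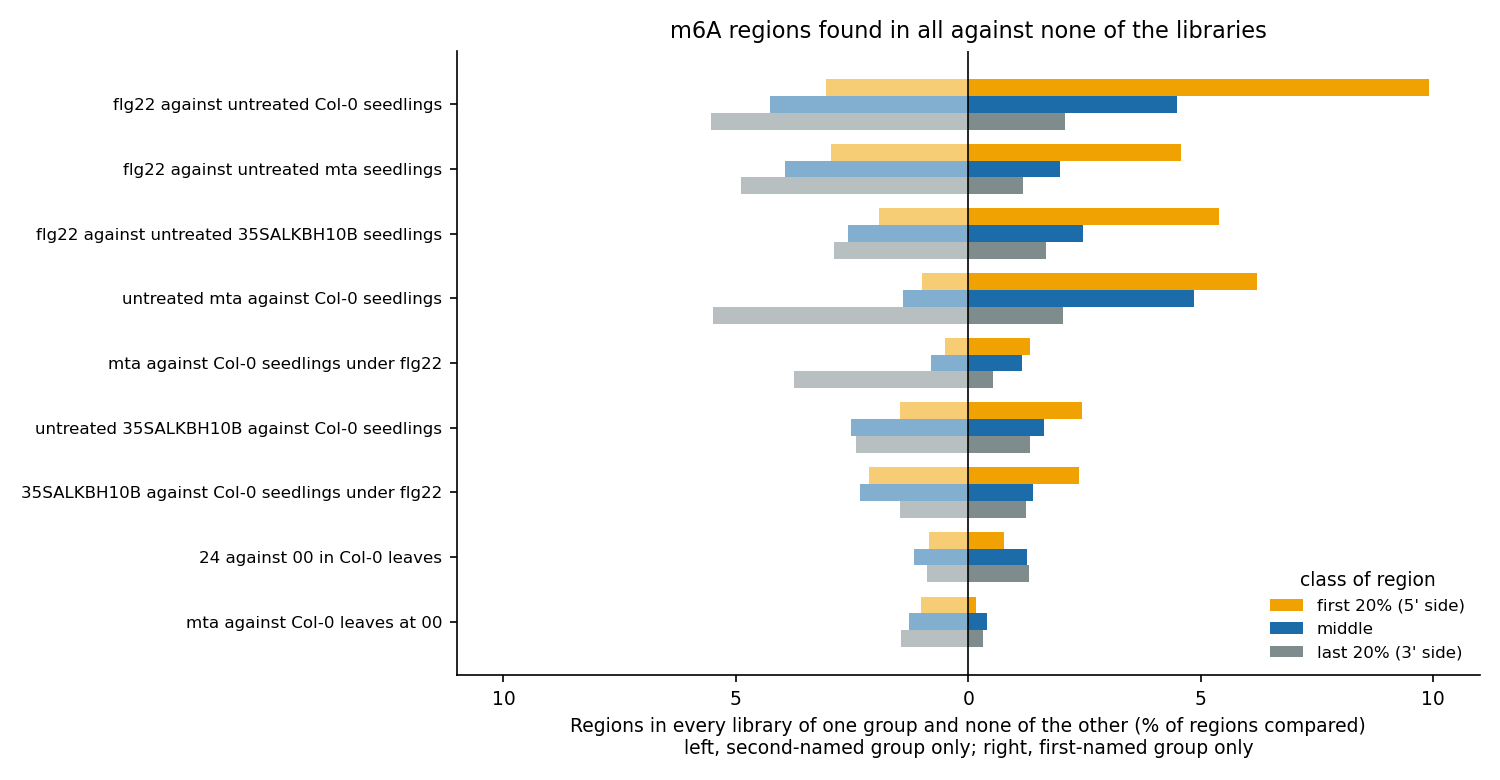
Regions present in every library of 1 group and none of the other, as percent of the regions compared, by class of region. In untreated mta against Col-0 the middle bar is longer on the mta side (4.86 against 1.40%). So is the 5′ (first 20%) bar (6.21 against 0.993%), and the 3′ (last 20%) bar is longer on the Col-0 side.

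In Col-0 seedlings, genes with a middle region only under flg22 or only untreated mostly had more mRNA in that group. Of 701 tested genes with a region only under flg22 in Col-0, 72.8% rose and 12.3% fell in mRNA, with a median log2 fold change of 0.82. Of 666 with a region only in untreated Col-0, 17.4% rose and 55.9% fell (median -0.55), and of those with a region in every library of both groups 41.9% rose and 31.8% fell. Over all 19887 genes tested 27.9% rose and 30.7% fell. In mta the same comparison gave 50.4% higher and 17.4% lower for regions only under flg22, and 14.4 and 41.9% for those only untreated, against 22% and 20.2% over all genes. In these 2 comparisons presence of a peak went with the amount of mRNA, and their parts cannot be told apart in a peak list. The link was not limited to the middle. Of tested genes with a region only under flg22 in Col-0, 85.3% (5′) and 65.9% (3′) rose. Where the region was only in untreated Col-0, 73.0% and 60.1% fell.

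Between mta and Col-0, genes with a region only in mta also leaned to more mRNA in mta, although most were not called higher. Of 788 tested genes with an mta-only middle region 40.1% were higher and 15.7% lower in mta (median 0.16), and of 232 with a Col-0-only region 22.8% were higher and 23.3% lower, against 18.1% and 15% over all genes. Under flg22, 38.0% of the mta-only genes were higher and 24.5% lower in mta, and 13.4 and 41.5% of the Col-0-only genes (18.1% and 19.9% over all genes). Genes with a middle region in every library of both were at 18.6 and 39.1% under flg22, close to the Col-0-only genes, and at 23.4 and 27.0% untreated. For the mta-only regions too, presence of a peak and amount of mRNA cannot be told apart in a peak list.

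In leaves the direction by label between 24 and 00 was opposite. Of 398 tested genes with a middle region only at 24, 21.9% were higher and 53.8% lower in mRNA at 24 (median -0.41), and of 356 with a region only at 00, 56.7% were higher and 19.9% lower (median 0.59). The background was 35.6% and 32.7%. Genes that were nearly silent at 00 gave another view: of 218 genes with mean mRNA below 0.5 CPM in Col-0 at 00 and above 10 at 24, the m6A lists of Col-0 at 00 held a summit in 8 to 15, those at 24 in 20 to 33, and those of mta at 00 in 4 to 49. For Col-0 that order is the one the labels give, while the direction of the group-specific regions and COR27 go against it, so the direction holds only if the time labels of the m6A and mRNA libraries match, which was not tested. Between mta and Col-0 at 00, 11.2% of the mta-only genes were higher and 20.0% lower, and of the Col-0-only genes 11% and 19.5% (15.5% and 13.3% over all genes). The leaf and seedling directions come from different lists and their difference was not tested.

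**Figure D5:**
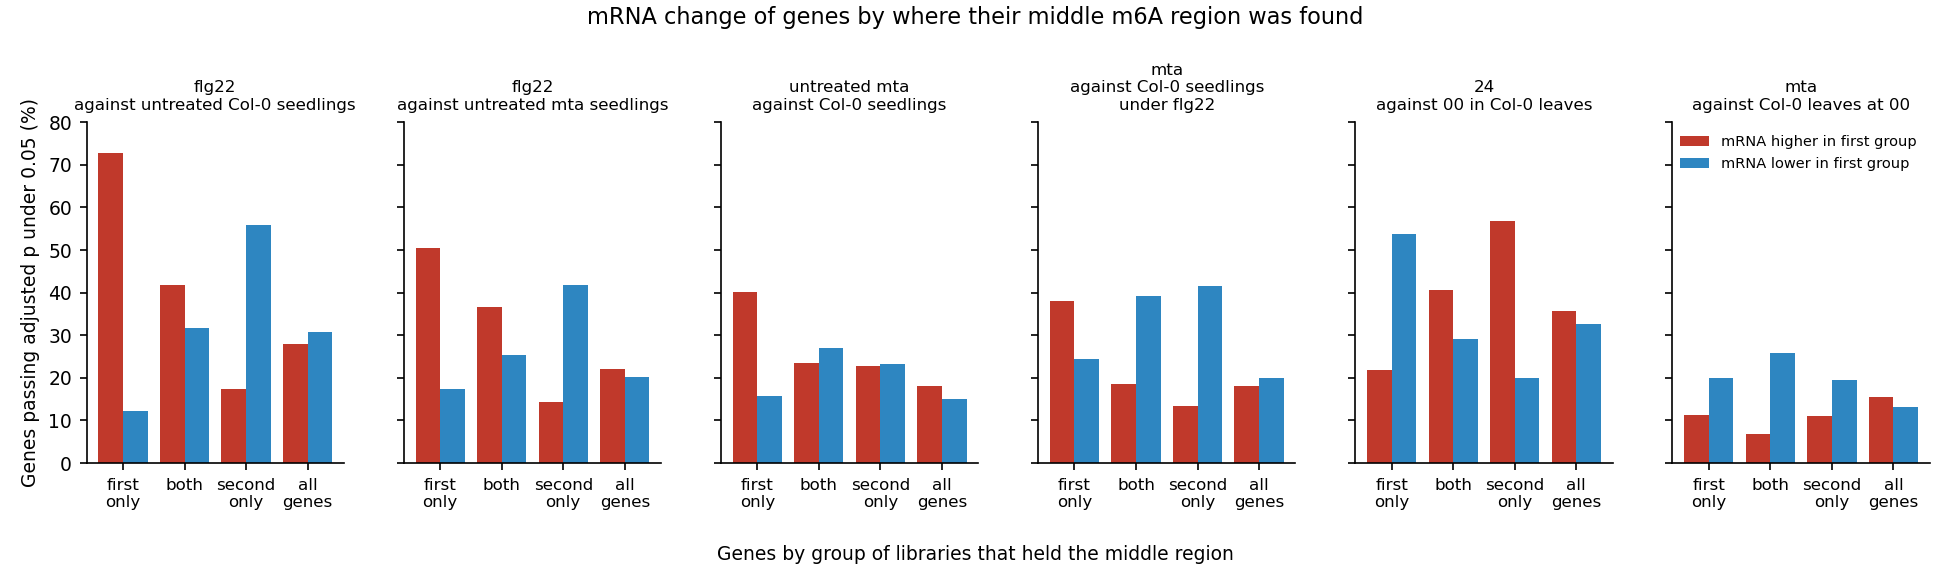
Percent of tested genes whose mRNA passed adjusted p under 0.05 (edgeR), higher in red and lower in blue, by the group of libraries that held the middle region, beside all genes tested. Genes with a region only under flg22 in Col-0 seedlings were mostly higher (72.8%), and genes with a region only at 24 in leaves mostly lower (53.8%).

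Genes with a middle region in every untreated Col-0 list numbered 4359 in seedlings and 3747 in leaves at 00. Of the seedling genes 4164 passed the filter on low counts, and 147 were at 0 in every seedling mRNA library. They were expressed above the average: per kb of gene span, the median of a library was 16.2 to 16.4 CPM, against 9.31 to 9.44 for genes with a 3′ region and no middle summit and 5.86 to 5.91 for all genes tested. In leaves the medians were 8.70 to 8.86, 6.03 to 6.40 and 4.04 to 4.16 CPM per kb. With flg22 in Col-0, 34.5% of the 4164 genes rose and 37.3% fell (27.9% and 30.7% of all genes), and in untreated mta 23.1% were higher and 26.5% lower (18.1% and 15%). In mta under flg22 the lower calls were 1343 of 4164 (32.3%, against 19.9% of all genes) and the higher 914 (22 against 18.1%). In leaves 43.4% were higher at 24 and 28.5% lower (35.6% and 32.7% of all genes). In mta leaves 7.64% were higher and 22.7% lower, where the background was 15.5% and 13.3%. The 815 lower calls in mta leaves became 527 without replicate 2 of Col-0 at 00. Of 194 tested leaf genes with a 3′ region and no middle summit, 32.0% were higher and 29.9% lower at 24. In mta leaves 8.25% of these 194 were higher and 23.2% lower. Called genes were thus more frequent than the background on both sides in seedlings. In leaves they were so on the higher side alone at 24 and on the lower side alone in mta. Genes with a 3′ region and no middle summit shared this in part. In seedlings 3467 of them were tested. For the flg22 comparison of Col-0, 33.5% of these 3467 were called higher and 31.5% lower. The shares were 18.2% and 20.97% in untreated mta, and 19.5% and 27.1% in mta under flg22. The middle genes also have more counts. They were chosen by peaks in untreated (00) Col-0, the reference group of most of these comparisons. Genes nearly silent there but higher in the other group could hardly enter, and the effect on the calls was not tested.

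Among these genes, with flg22 in Col-0, the precursor of the danger peptide Pep3, PROPEP3, rose from 23.3 ± 3.3 to 783 ± 94 CPM (log2 fold change 5.06, SE 0.10, edgeR adjusted p 9.2e-32), followed by UCC2, AT1G26240, DIN11 and AT1G02360. The largest falls were in AT1G21520, GER1, AT1G73600, AT5G48490 and AT5G03350, of which GER1 is fully covered by a locus of the other strand. In untreated mta DIN11, a gene of the oxygenase family induced by darkness, was at 174 ± 5.5 against 30.9 ± 0.92 CPM in Col-0 (log2 fold change 2.49, edgeR adjusted p 1.9e-23). CYP71A13, of camalexin synthesis, and the transporter ABCG40 were also higher there, by 2.35 and 2.32 on the log2 scale, and WRKY38 was lower (-1.73). Under flg22 the members with the largest excess in mta over Col-0 were AT1G52560 and the heat shock proteins Hsp70b (155 ± 0.75 against 13.7 ± 2.9 CPM), ATHSP22.0, HSP21 and HSP17.6A. The 5 members with the largest deficits were the organelle loci ATCG00490, ATMG00480, ATCG01180 and ATCG00680 and the nuclear locus AT5G09876 (log2 fold changes of -2.67 to -2.10). ATCG00490 was at 44.9 ± 7.4 in mta and 284 ± 343 CPM in Col-0, where 1 library stood at 681 and the lowest at 82.8.

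In leaves at 24, PCR1 and LURP1 led the rises among genes with a recurrent middle region (log2 fold changes 11.16 and 6.52), with AT2G26440, COR27 and EXT4, and BZIP61, XTH4 and ATTPPA led the falls (-7.25, -5.18 and -4.40). In mta leaves at 00, PCR1 was higher by 4.44 and AT2G32160 lower (-1.76). PCR1 was at 9.53 ± 8.2 CPM in mta and 0.428 ± 0.11 in Col-0.

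In uncapped RNA of the same seedling genes, tested on log2(RPM + 1) with limma, 484 of 4283 were higher and 1992 lower under flg22 in Col-0, where 10.5% of all genes rose and 40.1% fell and the median of all genes was -0.48. The split rests on that scaling: edgeR on the whole reads recovered from the RPM values called 1005 higher and 996 lower members, and 3952 and 3848 of all 20579 genes. In untreated mta 92 (2.15%) were higher and 138 (3.22%) lower by limma, against 2.31% and 1.78% of all genes. By edgeR 118 (2.75%) were higher and 90 (2.095%) lower, against 2.72% and 1.08%. With either method the share in mta thus exceeded that of all genes on the lower side, while the higher share was close to it. In untreated 35SALKBH10B 203 (4.74%) were higher and 445 (10.4%) lower by limma, against 3.4% and 9.18% of all genes. By edgeR 382 (8.89%) were higher and 269 (6.26%) lower, against 5.69% and 5.11%. The limma counts of both lines rested on single libraries: 29 and 21 were called without replicate 2 of untreated mta, and 68 and 200 without replicate 2 of untreated 35SALKBH10B. PROPEP3 rose with flg22 in uncapped RNA too, from 36.1 ± 5.7 to 718 ± 160 RPM (log2 fold change 4.26, limma adjusted p 2.8e-07), as did ASA1, of tryptophan synthesis (from 124 ± 36.3 to 1771 ± 192 RPM). In untreated mta DIN11, GSTU12, PROPEP3, CYP71A13 and THA1 led the rises, at log2 fold changes of 1.98 to 2.43. In 35SALKBH10B TI2, DIN11 and SDH2-2 led them (2.00, 1.83 and 1.83), and the falls were led by ATCG00660, ATCG00800 and the small RNA precursor TAS1C (-4.17, -3.65 and -2.80).

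By function, middle regions were common in most of the 11 gene lists, read against 33.1% of all loci with any middle summit in seedlings. Of all loci, 13.3% had a region in every untreated Col-0 list and 4.02% one in all 17 seedling lists. Counts of mRNA calls are read against all 19887 genes tested. Of these, 27.9% were called higher and 30.7% lower for flg22 in Col-0, and 18.1% and 15% for untreated mta. Among genes of the m6A machinery, 9 of 15 had a middle summit in seedlings, 6 in every untreated Col-0 list and 0 in all 17. Of 12 tested genes of that list 1 rose and 4 fell with flg22, and 4 were higher and 2 lower in untreated mta. Of pattern-triggered immunity signalling, 23 of 27 had one and 3 had a region in all 17: the kinases MPK4 (median fold enrichment 5.46, range 3.09 to 8.62) and CPK5 (4.24), and the NADPH oxidase RBOHD (3.65), which makes the reactive oxygen burst. RBOHD mRNA was 246 ± 20 CPM in untreated Col-0 and 672 ± 51 under flg22. Of 26 tested genes of that list, 21 were higher and 2 lower under flg22 in Col-0, and 10 were higher and 2 lower in untreated mta. The chitin receptor kinase CERK1 had the recurrent leaf region, with 5.10, 6.40 and 6.30 in Col-0 at 00 and 2.2, 2.33 and 2.51 at 24, while its mRNA was 13.8 ± 0.43 CPM at 00 and 57.0 ± 1.83 at 24.

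Among NLR receptors, the intracellular immune receptors, 13 of 17 had a middle summit and 1, ZAR1, a region in all 17 seedling libraries (5.10); a locus of the other strand covers 79% of ZAR1. Of salicylic acid genes 19 of 23 had one and 6 were in all 17, among them the membrane protein NDR1 (6.64), the transcription factors WRKY70 (6.20) and WRKY53 (5.73) and the regulator SARD1 (5.62). All 13 WRKY factors of the list had a middle summit, 10 in every untreated Col-0 list, with WRKY29 (4.97), WRKY75 (3.68), WRKY22 (3.02) and WRKY11 (2.25) in all 17. Of jasmonate and ethylene genes 23 of 24 had one, and LOX4, a lipoxygenase (4.53), CTR1, the kinase that represses ethylene signalling (4.26), and the transcription factor EIN3 (3.74) were in all 17. In leaves CTR1 (3.89) and the ethylene receptor ERS1 (3.49) were in all 9. All 19 genes of indole defence had a middle summit, yet CYP79B2 alone was in every seedling library (2.40), and 17 of the 19 were higher in untreated mta mRNA (median 1.37) and 18 rose with flg22 (median 3.18).

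The remaining lists covered photosynthesis, RNA decay, protein synthesis and the cytoskeleton. Of photosynthesis genes 25 of 26 had a middle summit, and PRK, the kinase of the Calvin cycle (5.93), PSBO2 (5.17), LHCA1 (3.54) and PSAF (3.32), of the photosystems, were in all 17. Their 4 summits lay at 23 to 24.6% of the gene, close to the lower limit of the class. PRK mRNA was 304 ± 10.2 CPM in untreated Col-0 and 128 ± 10.9 under flg22, and all 25 tested genes of the list fell. Of RNA decay genes 14 of 16 had one, with the exoribonuclease XRN4 (6.85, range 4.69 to 9.10), the decapping scaffold VCS (4.27) and the deadenylases CAF1b (4.12) and CAF1a (2.29) in all 17, and AGO1 (2.59) and VCS (2.45) in all 9 leaf libraries. Of protein synthesis genes 11 of 11 had one and 6 were in all 17, led by the initiation scaffold EIF4G (7.23, range 6.18 to 12.8), the poly(A)-binding proteins PAB4 (5.35) and PAB2 (2.96) and the ribosomal protein ATL5 (3.01), and 8 of its 11 genes fell and 1 rose with flg22. Of 14 actin and tubulin genes 13 had one, 2 in every untreated Col-0 list and 0 in all 17. In leaves 22 of 27 immunity signalling genes, 12 of 17 NLR receptors, 16 of 23 salicylic acid genes, 10 of 13 WRKY factors and 23 of 26 photosynthesis genes had a middle summit, against 38.1% of all loci. These lists hold mostly expressed genes, so their shares are a description.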

How the data were processed

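The 75 samples form 25 groups of 3. The authors called narrow peaks per m6A library and strand with MACS2 after STAR alignment to TAIR10, per the submitters' processing notes, which give no versions. Fold enrichment, a ratio made by the peak caller, is used as the authors deposited it. Its library medians differed, so a fold compared between libraries can include a shift of the whole list. The −log10 values of p and q were likewise made by the caller and deposited by the authors. For mRNA the deposited files hold raw counts per feature (featureCounts 2.0.1 per the seedling file header), and for GMUCT the authors deposited RPM, whose values came out as whole reads in 100% of cases within 0.01. No source used here states whether input libraries entered the peak calls. The gene is read on the opposite strand, so the position of a summit rests on that reading.

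Of 62925 annotated features the 32844 gene loci were used. Features named NPC, which mirror genes of the other strand, took 26.1 to 27.2% of seedling counts, so seedling counts did not separate strands; 8.12 to 17.8% of leaf counts named no gene and were left out. Another 12 seedling count columns, with names that did not map to a group, were not used, so mRNA of 35SALKBH10B is not analysed here, nor are m6A in mta leaves at 24 and untreated Col-0 m6A replicate 1. Exon, intron and UTR limits were not used here.

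Counts were tested in R 4.3.3 with edgeR 4.0.16 (quasi-likelihood, TMM, filterByExpr, all libraries of a tissue together), with DESeq2 1.42.0 as an alternative, and RPM with limma 3.58.1 on log2(RPM + 1) for genes of at least 1 RPM in 3 libraries, with Benjamini-Hochberg adjustment over all genes tested. The scripts were tested on simulated data. Numbers, shares and folds of peaks were compared over libraries by exact permutation or, over 17 libraries, 100000 sign flips (Python 3.11.15, scipy 1.17.1). Same-numbered leaf m6A libraries deviated together (correlations of 0.135 to 0.247 between 24 and 00 and 0.157 to 0.234 between mta and Col-0, every pair above 0.1), so within-number values are given. The members, the 11 gene lists (205 of 223 symbols matched) and the tests were chosen with earlier results of these data known. Named genes are, per tissue, the 10 highest regions in every library; per comparison, up to 3 regions a side by median fold enrichment and up to 5 member genes a side by mRNA or GMUCT change; and up to 4 genes per list.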

Additional observations from a re-analysis of the deposited data

Results flagged for a closer look

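The difference of the middle share with flg22 had opposite signs in 2 genotypes: flg22 minus untreated was 3.92 percentage points in Col-0, where every flg22 library lay above both untreated ones, and -1.12 points in 35SALKBH10B, where the groups overlapped at the edge. The negative sign in 35SALKBH10B did not hold with stricter peak sets, at 1.08 points with −log10 q of 5 or more and 0.90 with the 12000 strongest peaks, nor in replicate 3 (1.12). The difference between the genotypes was not tested.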

How the results depend on the processing

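The shares of middle summits kept their sign in the 4 comparisons whose groups did not overlap, with leave-one-out ranges of 8.65 to 9.59 points for untreated mta against Col-0, 5.55 to 6.93 under flg22, 3.09 to 4.47 for flg22 in Col-0 and -4.38 to -3.01 for 35SALKBH10B under flg22. Other differences reversed. The flg22 difference of the share in 35SALKBH10B was 1.08 with −log10 q of 5 or more and 0.90 with the 12000 strongest peaks. With −log10 q of 5 or more the number of middle summits differed by 39 for flg22 in 35SALKBH10B, -30.2 for untreated 35SALKBH10B against Col-0 and -585 for leaves at 24, and with the replicate block untreated 35SALKBH10B differed by -376. Leaving out 1 library, the number ranged from -376 to 968 for untreated 35SALKBH10B, -1796.5 to 63 for flg22 in mta, -154 to 1705 for mta under flg22, -1394 to 1994 for leaves at 24 and -3496 to 274 for mta leaves, and the leaf shares from -1.82 to 1.03 and -0.124 to 2.46. The fold enrichment of middle against 3′ seedling peaks shrank to -0.0056 and -0.0149 with the 2 stricter peak sets. The cause was not tested.

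Counts of regions fall with a narrower window or fewer peaks by construction. With a window of 30 to 70%, 798 seedling and 829 leaf regions were in every library, and regions in all of the first and none of the second group, and the reverse, were 492 and 465 for flg22 in Col-0, 255 and 522 in mta, 249 and 274 in 35SALKBH10B, 550 and 151 for untreated mta, 135 and 92 for mta under flg22, 161 and 247 for untreated 35SALKBH10B, 134 and 260 under flg22, and 90 and 285 for mta leaves. With −log10 q of 5 or more, 574 seedling and 59 leaf regions were in every library, and 837 seedling regions were with summits joined within 50 nt. Regions only in the first group were then 352 for flg22 in Col-0, 249 for flg22 in mta, 479 for untreated mta, 135 for untreated 35SALKBH10B, 44 for leaves at 24 and 14 for mta leaves, and only in the second 182 for flg22 in 35SALKBH10B, 135 for 35SALKBH10B under flg22, 113 for leaves at 24 and 104 for mta leaves. Without 1 library the first and second counts were 1079 to 1440 and 833 to 1863 for flg22 in Col-0, 539 to 1140 and 1002 to 1356 in mta, 509 to 726 and 536 to 926 in 35SALKBH10B, 1357 to 1548 and 375 to 941 for untreated mta, 355 to 770 and 230 to 492 for mta under flg22, 478 to 725 and 537 to 1400 for untreated 35SALKBH10B, 360 to 484 and 501 to 1004 under flg22, 650 to 1130 and 633 to 1267 for leaves at 24, and 240 to 713 and 578 to 1313 for mta leaves.

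In uncapped RNA, edgeR on recovered reads called 1005 members higher and 996 lower for flg22, 382 and 269 for 35SALKBH10B, and 90 lower for mta. Taking as members the genes with a region in every list of the tissue, fewer genes, the counts were 164 and 541, 65 and 139, and 29 and 45 for uncapped RNA, and for mRNA 501 and 408 for flg22 in Col-0, 424 and 339 in mta, 310 and 403 for untreated mta, 237 and 483 for mta under flg22, 488 and 316 for leaves at 24 and 60 and 327 for mta leaves. The genes tested were 1297 for uncapped RNA, 1257 for seedling mRNA and 1140 for leaf mRNA. The uncapped shares were 12.6% and 41.7% for flg22, 5.01% and 10.7% for 35SALKBH10B, and 2.24% and 3.47% for mta. Over all genes they were 10.5% and 40.1%, 3.4% and 9.18%, and 2.31% and 1.78%. Without 1 library, uncapped calls were 68 to 175 higher and 200 to 450 lower for 35SALKBH10B and 29 to 77 and 21 to 76 for mta, and lower mRNA calls in mta leaves 527 to 759. Seedling m6A libraries, and mRNA and GMUCT libraries, of 1 number did not deviate together in every pair; with the replicate block the share differed by 9.49 points for untreated mta against Col-0, and counts of mRNA and uncapped calls moved by less than 1.5 times (1434 and 1551 members for flg22 in Col-0 mRNA). Exon annotation of summits and motif searches, which need a genome, were not run. Unknown m6A depth limits every absence of a peak.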
